A study of Mus musculus with 24 samples.

Results

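RNA from Sox3 conditional knockout (cKO) spermatogonia with KIT+ markers was compared with RNA from wild-type (WT) cells with the same markers. The pair holds 6 of the 24 libraries of the series, 3 from cKO mice labelled KIT+ and 3 from WT mice labelled THY1+. The libraries were chosen by their Kit and Thy1 levels, because the label and the markers of the WT side disagree. All came from testes at postnatal day 7, with 3 mice pooled per isolation, after magnetic enrichment with antibodies to THY1 (undifferentiated spermatogonia, uSPG) or KIT (differentiating spermatogonia, dSPG). The cKO mice, on a C57BL/6J background, carried a floxed Sox3 allele and a Cre driven by the Ddx4 (Vasa) promoter, which acts in male germ cells, and the WT mice were their littermates. Somatic cells of the cKO testes were thus not targeted, and the deletion was not limited to KIT+ cells. The labels do not say whether the fractions of one replicate number came from the same pool of mice.

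SOX3 is an X-linked transcription factor of the SOXB1 group that marks undifferentiated spermatogonia. Spermatogonia pass from stem cells with the GDNF co-receptor GFRA1, through progenitors that express NEUROG3, to KIT+ differentiating cells, a step driven by retinoic acid. STRA8 and the first meiotic genes follow. KIT is also carried by Leydig cells and mast cells of the testis, whereas its ligand is made by Sertoli cells. Somatic genes are therefore set apart from germ cell genes below. In bulk libraries, fewer cells of a type and less RNA per cell cannot be told apart.

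Kit transcripts stood at 49.9, 71.4 and 56.7 FPKM (fragments scaled to transcript length and to library depth) in the 3 cKO libraries. WT libraries labelled THY1+ gave 48.2, 45.6 and 80.1 FPKM. Thy1 was at 0.286, 0.244 and 0.292 FPKM in cKO and 0.253, 0.254 and 0.213 FPKM in WT. Both sides of the pair were thus high for Kit and low for Thy1, and their ranges of Kit overlapped. The other 6 libraries of the table, labelled WT KIT+ and cKO THY1+, had 12.97 to 18.8 FPKM of Kit and 3.59 to 5.26 FPKM of Thy1. In the Zbtb16 table Kit was at 51.7 to 74.8 FPKM under KIT+ labels and at 13.8 to 21.1 FPKM under THY1+ labels. The WT libraries labelled THY1+ therefore carried the markers of a KIT+ fraction. Kit and Thy1 are described with no test, since they set the pair.

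**Figure D1:**
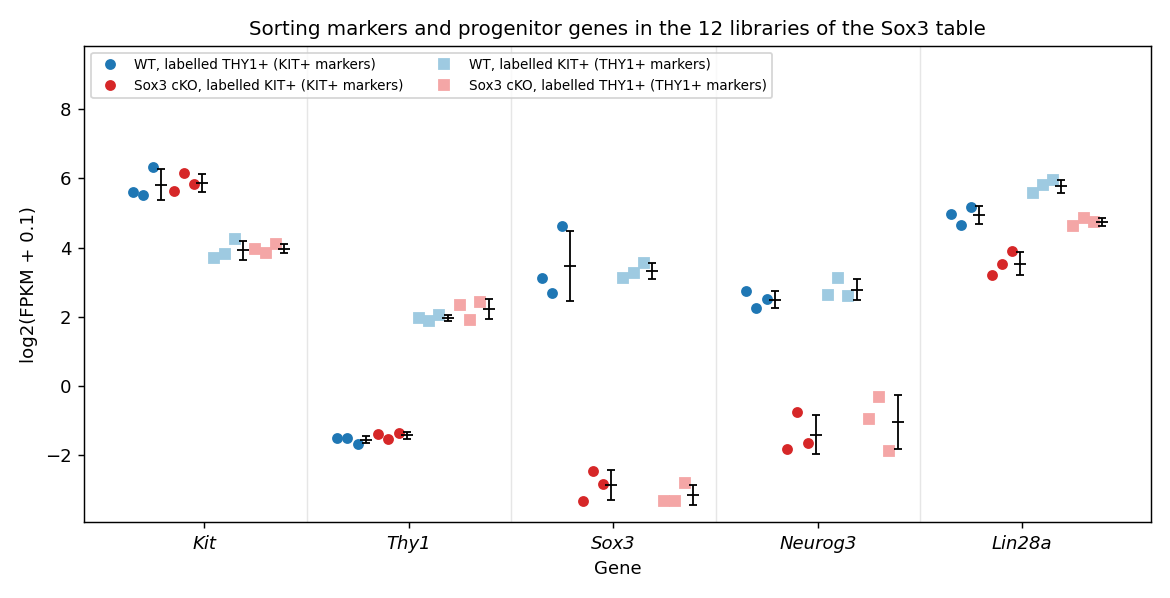
The y axis gives log2(FPKM + 0.1) for 5 genes on the x axis, with 1 point per library of the Sox3 table and black bars for the mean and SD of 3 libraries. Kit is as high in WT labelled THY1+ as in cKO labelled KIT+, and Sox3 and Neurog3 are low in all 6 cKO libraries.

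Depth was estimated at 11.8 to 31.9 M reads per library, and replicate 1 was the deepest on both sides. Of 21212 genes tested with limma on log2(FPKM + 0.1), 17.0% passed, meaning a Benjamini-Hochberg adjusted p no higher than 0.05 together with a 1.5-fold change or more. Of these 2638 rose (12.4%) and 970 fell (4.57%) in cKO libraries. For 40.0% of all genes the 3 cKO values did not overlap the 3 WT values. Changes are given below as cKO minus WT on the log2(FPKM + 0.1) scale with their SE, which understates genes with little RNA, and levels as mean ± SD of 3 libraries. The median change of all genes was 0.024. Scaling the libraries to 8 general germ cell genes moved that median to 0.51 and gave 7926 rises and 126 falls, and quantile normalization gave 1928 rises and 1326 falls, so the split between directions is relative to the scale.

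Sox3 itself, the targeted gene (ENSMUSG00000045179, chrX:60891366-60893430 of mm10, minus strand), had 8.67, 6.28 and 24.4 FPKM in WT and 0, 0.08201 and 0.04099 FPKM in cKO libraries. WT replicate 3 stood above the other two, and no cKO library came near any of them. The cKO libraries held 3 reads in all and the WT libraries 1427, a depth-adjusted ratio of 418.5 with a 95% exact counting interval of 143 to 2032. The fitted change was -6.34 ± 0.42, adjusted p = 0.000148.

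Progenitor genes were among the deepest falls. Neurog3, a basic helix-loop-helix factor that marks progenitors, had 6.54, 4.68 and 5.57 FPKM in WT and 0.184, 0.494 and 0.219 FPKM in cKO (-3.9 ± 0.38, adjusted p = 0.0014). Lin28a, an RNA-binding protein that blocks let-7 maturation, had 31.03, 25.2 and 36.1 FPKM in WT and 9.097, 11.4 and 14.7 FPKM in cKO (-1.4 ± 0.18, adjusted p = 0.00177). For both, each cKO library lay below each WT library. The bases upstream of both genes, and of Stra8 and Lmo1 that fell too, are shown because SOX proteins bind a short core. Each line gives the 250 bases before the RefSeq start (GRCm38.p6), 5′ to 3′ along the gene, with capitals for ACAAAG or ACAAT read on either strand (CTTTGT or ATTGT on the other).
Neurog3, chr10:62132840-62133089, plus strand: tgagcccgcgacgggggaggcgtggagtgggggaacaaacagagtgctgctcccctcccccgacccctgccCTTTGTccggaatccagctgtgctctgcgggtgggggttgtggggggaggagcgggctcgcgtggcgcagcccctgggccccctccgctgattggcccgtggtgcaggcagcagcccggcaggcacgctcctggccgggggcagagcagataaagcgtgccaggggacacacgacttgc
Lin28a, chr4:134018817-134019066, minus strand: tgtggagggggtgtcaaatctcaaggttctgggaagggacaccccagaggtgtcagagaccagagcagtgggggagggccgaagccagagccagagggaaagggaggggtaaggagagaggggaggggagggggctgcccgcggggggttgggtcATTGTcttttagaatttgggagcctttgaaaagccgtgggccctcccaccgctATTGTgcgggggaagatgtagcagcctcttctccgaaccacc
Stra8, chr6:34920698-34920947, plus strand: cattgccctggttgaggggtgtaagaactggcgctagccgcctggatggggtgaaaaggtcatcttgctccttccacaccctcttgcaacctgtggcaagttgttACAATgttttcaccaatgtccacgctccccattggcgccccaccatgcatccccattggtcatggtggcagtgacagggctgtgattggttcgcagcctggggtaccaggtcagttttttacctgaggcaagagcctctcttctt
Lmo1, chr7:109175208-109175457, minus strand: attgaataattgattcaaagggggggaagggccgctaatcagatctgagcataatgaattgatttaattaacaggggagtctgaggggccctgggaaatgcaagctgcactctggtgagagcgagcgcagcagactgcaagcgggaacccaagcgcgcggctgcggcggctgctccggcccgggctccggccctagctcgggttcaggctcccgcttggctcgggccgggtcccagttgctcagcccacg
Neurog3 and Stra8 held 1 match each and Lin28a held 2, whereas the first of 2 listed Lmo1 starts held 0. Such a match was present in 38.8% of all 32851 promoters over the same window. The matches describe these letters and are not binding sites.

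In the list of 10 progenitor genes, 3 fell (Sox3, the targeted gene, Neurog3 and Lin28a) and 0 rose, with a median of -0.52. Taf4b, a subunit of TFIID in germ cells, had 28.3 ± 4.86 FPKM in cKO and 35.99 ± 2.45 FPKM in WT (-0.36 ± 0.12, adjusted p = 0.0534). Zbtb16, a zinc-finger factor of spermatogonial self-renewal, had 13.8 ± 3.48 FPKM in cKO and 19.7 ± 7.91 FPKM in WT (-0.48 ± 0.29, adjusted p = 0.246). Sall4, another zinc-finger factor, had 14.3 ± 4.92 FPKM in cKO and 18.2 ± 11.3 FPKM in WT (-0.24 ± 0.40, adjusted p = 0.695). These 3 did not pass, and their signs turned under germ cell scaling. The 3 falls of the list passed in every leave-out and under germ cell scaling, where the median of the list was -0.0044.

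Genes of differentiating spermatogonia were lower in cKO libraries, with 5 of 9 falling, 0 rising and a median of -0.76, Kit being left out of the count. Stra8, induced by retinoic acid and needed for meiotic entry, had 123, 150 and 126 FPKM in WT and 53.97, 45.05 and 65.2 FPKM in cKO (-1.29 ± 0.15, adjusted p = 0.00162). Crabp1, which binds retinoic acid in the cell, had 208, 239 and 225 FPKM in WT and 85.2, 124 and 99.9 FPKM in cKO (-1.14 ± 0.15, adjusted p = 0.00195). Neither gene had overlapping groups. Rhox13, a germ cell homeobox gene, went from 58.5 ± 11.1 FPKM in WT to 27.3 ± 3.53 FPKM in cKO (-1.09 ± 0.16, adjusted p = 0.00226). Sohlh1 and Sohlh2, partner factors of early differentiation, fell as well (-0.76 ± 0.15, adjusted p = 0.00601, and -0.71 ± 0.14, adjusted p = 0.00559). Dnmt3b, a de novo DNA methyltransferase, had 22.7 ± 6.58 FPKM in cKO and 33.03 ± 10.4 FPKM in WT and did not pass (-0.54 ± 0.24, adjusted p = 0.122). The list kept 5 falls whichever library was left out. Under germ cell scaling it had 2 falls and 1 rise, with the calls of Rhox13, Sohlh1 and Sohlh2 lost, and with replicates 2 and 3 alone it had 3 falls.

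General germ cell genes and meiosis genes were lower too. All 8 general germ cell genes had negative changes and 3 fell, with a median of -0.53. Mael, a piRNA pathway protein, had 273, 272 and 277 FPKM in WT and 156, 194 and 189 FPKM in cKO (-0.61 ± 0.11, adjusted p = 0.00427). Gtsf1, also of the piRNA pathway, and Dnd1, an RNA-binding protein of germ cell survival, passed with -0.66 ± 0.22, adjusted p = 0.0446 and -0.64 ± 0.14, adjusted p = 0.00806. Dazl and Ddx4, RNA regulators of germ cells, stayed under 1.5-fold (-0.51 ± 0.16, adjusted p = 0.0394, and -0.51 ± 0.10, adjusted p = 0.00595), and Tex15 did not pass (-0.16 ± 0.18, adjusted p = 0.557). All 23 meiosis genes had negative changes, 12 fell, and the median was -0.69. Syce3, of the synaptonemal complex, had 28.02, 38.3 and 25.5 FPKM in WT and 11.9, 12.8 and 15.2 FPKM in cKO (-1.18 ± 0.18, adjusted p = 0.00273). Tex12, Syce2, Syce1 and Sycp3 of the same complex fell by 0.89 ± 0.16, 0.85 ± 0.15, 0.77 ± 0.12 and 0.72 ± 0.16, and Spata22, a recombination factor, by 0.84 ± 0.20. The calls of these lists depended on the scale: with germ cell scaling 0 general germ cell genes and 1 meiosis gene fell. Their medians were then -0.0094 and -0.17. Dazl, Ddx4 and Tex15 turned positive, but that scaling sets the mean of the 8 general genes level, so some turns follow from it. Meiosis had 7 falls without cKO replicate 1, and general germ cell genes had 1 without WT replicate 1, WT replicate 3 or cKO replicate 1. With replicates 2 and 3 alone 1 meiosis gene and 0 general germ cell genes fell. Of the genes named above, Gtsf1 and Dnd1 lost their calls without WT replicate 1, and Gtsf1 and Spata22 without WT replicate 2. Without WT replicate 3 the calls of Gtsf1 and Dnd1 were lost, and without cKO replicate 2 that of Gtsf1. Without cKO replicate 1 the calls of Mael, Dnd1 and Sycp3 were lost.

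**Figure D2:**
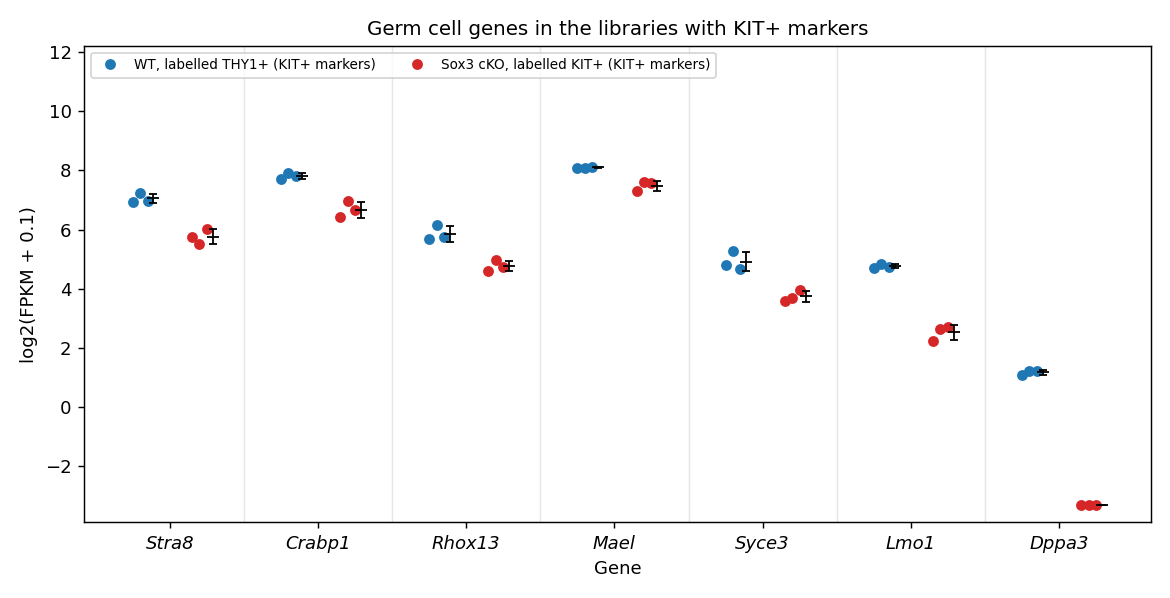
The y axis gives log2(FPKM + 0.1) for 7 germ cell and other falling genes on the x axis, with 1 point per library and black bars for the mean and SD of 3 libraries. All cKO points lie below all WT points, and Dppa3 is at 0 FPKM in the 3 cKO libraries.

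In the list of stem spermatogonia genes 12 of 13 had positive changes, with 5 rising, 0 falling and a median of 0.72. Which cells held this RNA was not tested. Dusp6, a phosphatase that limits ERK signalling, had 29.02, 22.3 and 30.7 FPKM in cKO and 16.5, 10.5 and 17.01 FPKM in WT (0.91 ± 0.19, adjusted p = 0.00685). Spry4, an inhibitor of receptor tyrosine kinase signalling, had 2.38, 2.16 and 2.87 FPKM in cKO and 1.39, 0.721 and 1.403 FPKM in WT (1.06 ± 0.25, adjusted p = 0.0123). Both were higher in each cKO library than in each WT library. Gfra1, the GDNF co-receptor, had 10.03, 7.52 and 12.9 FPKM in cKO and 6.099, 4.08 and 7.89 FPKM in WT (0.76 ± 0.24, adjusted p = 0.0391), with overlapping groups. The transcription factor Etv5 (0.9 ± 0.30, adjusted p = 0.0473) and Shisa6 (0.94 ± 0.27, adjusted p = 0.0257, under 1 FPKM) rose too. Ret, the GDNF receptor, had 8.37 ± 2.84 FPKM in cKO and 5.27 ± 2.61 FPKM in WT and did not pass (adjusted p = 0.146). Bcl6b and Eomes, named after their values were seen, had overlapping groups and did not pass either. Bcl6b had 4.75, 2.66 and 5.75 FPKM in cKO and 3.78, 2.94 and 5.45 FPKM in WT, and Eomes was under 1 FPKM. The 5 calls became 2 without WT replicate 1, WT replicate 2 or cKO replicate 3, 3 without cKO replicate 1 or 2, and 0 with replicates 2 and 3 alone. Dusp6 and Spry4 passed in every leave-out. With 1 library removed, of the named genes the test was no longer passed by Gfra1, Etv5 and Shisa6 (without WT replicate 1), Gfra1, Etv5 and Shisa6 (without WT replicate 2), Shisa6 (without WT replicate 3), Gfra1 and Etv5 (without cKO replicate 1), Etv5 and Shisa6 (without cKO replicate 2) and Gfra1, Etv5 and Shisa6 (without cKO replicate 3).

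**Figure D3:**
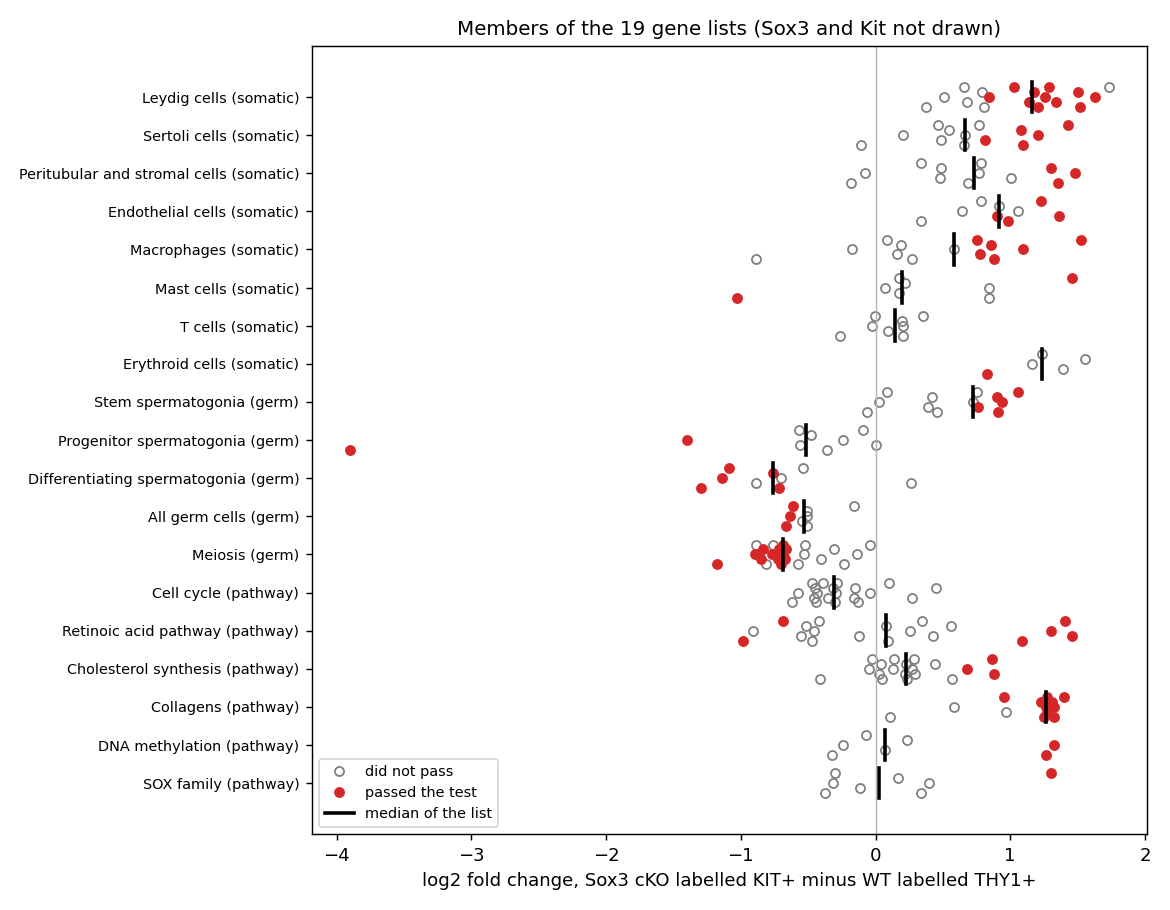
The x axis gives the log2 change, cKO labelled KIT+ minus WT labelled THY1+, of genes in the 19 lists on the y axis, filled red where the gene passed, with a black bar at the list's median. Sox3 and Kit are not drawn, but the progenitor median includes Sox3. Progenitor, differentiating, general germ cell and meiosis medians lie below 0, and stem, Leydig, Sertoli, stromal, endothelial and collagen medians lie above 0.

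Somatic genes were higher in cKO libraries. Over 8 somatic lists 31 of 86 genes rose and 1 fell, whereas over 5 germ lists 5 of 63 rose and 23 fell, against 12.4% rising and 4.57% falling among all genes. The 23 falls include Sox3, the targeted gene. Leydig cells, which make androgen, had 11 of 18 genes rising and 0 falling, a median of 1.16 and positive changes in all 18. Their summed level was 2934 to 5803 FPKM in cKO and 1494 to 2448 FPKM in WT, against 140 to 187 FPKM in the 6 libraries with THY1+ markers. Leydig RNA was therefore abundant on both sides of the pair.

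Star, which brings cholesterol into mitochondria, had 348, 158 and 207 FPKM in cKO and 136, 42.1 and 84.1 FPKM in WT (1.52 ± 0.41, adjusted p = 0.0214). Cyp11a1, which makes pregnenolone, had 951, 407 and 539 FPKM in cKO and 312, 191 and 215 FPKM in WT (1.34 ± 0.35, adjusted p = 0.0175). The lowest cKO value exceeded the highest WT value in both. Lhcgr, the luteinizing hormone receptor, had 58.98, 53.5 and 32.9 FPKM in cKO and 21.4, 15.1 and 14 FPKM in WT (1.5 ± 0.29, adjusted p = 0.00562). Nr5a1, the steroidogenic transcription factor, rose by 1.29 ± 0.26, Cyp17a1, of androgen synthesis, by 1.26 ± 0.32, and Cyp11b1, a steroid hydroxylase, by 1.63 ± 0.49 (adjusted p = 0.00696, 0.0162 and 0.0342). Insl3, a Leydig peptide hormone named after its values were seen, had 602, 258 and 338 FPKM in cKO and 289, 185 and 183 FPKM in WT and did not pass (0.81 ± 0.35, adjusted p = 0.11). The list had 5 calls without WT replicate 2, 7 without cKO replicate 1 and 5 with replicates 2 and 3 alone. Leaving out 1 library ended, among the named genes, the calls of Cyp11b1 (without WT replicate 1), Star, Cyp11a1, Cyp17a1 and Cyp11b1 (without WT replicate 2), Cyp11a1 and Cyp11b1 (without WT replicate 3), Star, Cyp11a1, Cyp17a1 and Cyp11b1 (without cKO replicate 1) and Cyp11b1 (without cKO replicate 3).

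**Figure D4:**
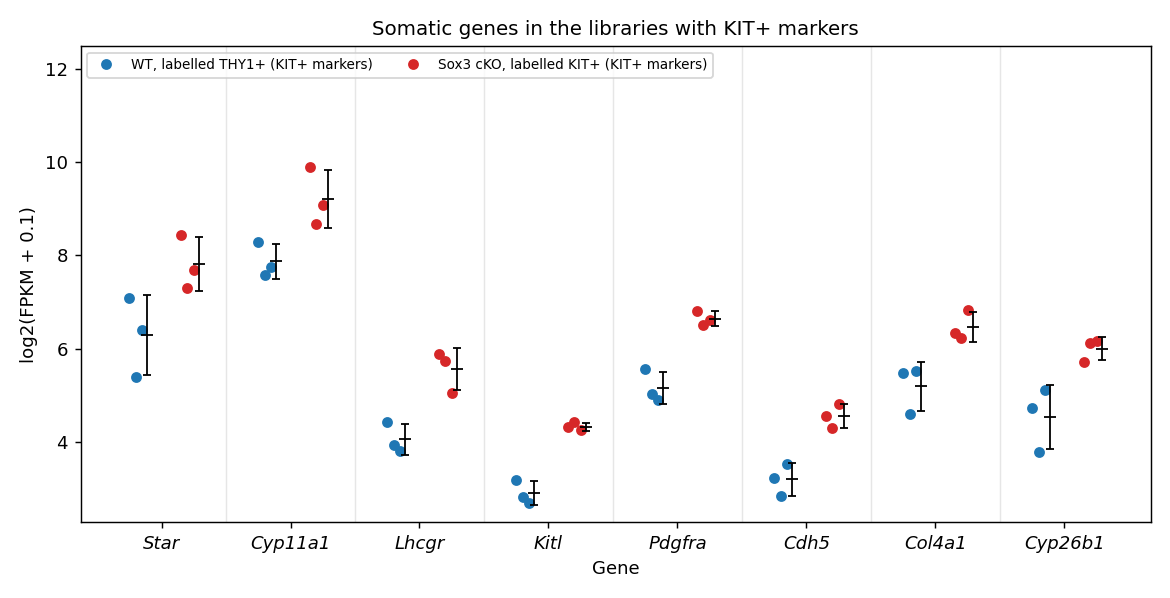
The y axis gives log2(FPKM + 0.1) for 8 genes of the somatic, collagen and retinoic acid lists on the x axis, with 1 point per library and black bars for the mean and SD of 3 libraries. All cKO points lie above all WT points for each gene.

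Sertoli cells had 5 of 13 genes rising and 0 falling, with a median of 0.66. The 8 that did not pass were Amh and, listed after their values were seen, Sox9, Rhox5, Rhox8, Cldn11, Wt1, Dhh and Fshr. Kitl, the ligand of KIT, had 19.9, 21.3 and 18.98 FPKM in cKO and 9.02, 6.93 and 6.39 FPKM in WT (1.43 ± 0.27, adjusted p = 0.00541). Inha, an inhibin subunit, and Gata4, both of which Leydig cells also make, rose by 1.2 ± 0.25 and 1.09 ± 0.21, Inhbb by 0.81 ± 0.19 and Gdnf, the ligand of GFRA1 and RET, by 1.08 ± 0.28. Amh, the hormone of immature Sertoli cells, had 8.599 ± 3.22 FPKM in cKO and 4.77 ± 0.194 FPKM in WT and did not pass (adjusted p = 0.0649). Of 12 peritubular and stromal genes 3 rose, among them Pdgfra, a growth factor receptor, from 36.5 ± 9.202 to 100 ± 11.4 FPKM (1.48 ± 0.27, adjusted p = 0.00427), and the transcription factor Nr2f2 by 1.35 ± 0.22. Of 9 endothelial genes 4 rose, with Cdh5, a junction cadherin, at 23.4, 19.7 and 28.1 FPKM in cKO and 9.28, 7.04 and 11.5 FPKM in WT (1.36 ± 0.26, adjusted p = 0.00562). Kdr, a VEGF receptor, rose by 1.23 ± 0.29. With replicates 2 and 3 alone 3 Sertoli and 0 endothelial genes rose, and without cKO replicate 2 endothelial rises numbered 7. Of the genes named above, Gdnf lost its call without WT replicate 2 and without cKO replicate 3.

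Collagens, made chiefly by stromal cells, had 10 of 13 genes rising and 0 falling, with a median of 1.27. Col4a1, of basement membranes, had 81.05, 75.3 and 114 FPKM in cKO and 44.2, 24.05 and 46.2 FPKM in WT (1.27 ± 0.26, adjusted p = 0.00703). Col1a2, Col6a2 and Col4a2 rose by 1.4 ± 0.37, 1.33 ± 0.30 and 1.33 ± 0.32. Col15a1, another basement membrane collagen, had 3.72, 5.02 and 5.71 FPKM in cKO and 1.88, 1.27 and 2.63 FPKM in WT (1.31 ± 0.41, adjusted p = 0.0373). With replicates 2 and 3 alone 1 collagen passed. With 1 library removed, of the named genes the test was no longer passed by Col15a1 (without WT replicate 1), Col1a2 and Col15a1 (without WT replicate 2), Col15a1 (without cKO replicate 1), Col15a1 (without cKO replicate 2) and Col1a2 and Col15a1 (without cKO replicate 3).

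Blood cell genes were scarce. Macrophage genes summed to 10.6 to 11.1 FPKM in cKO and 7.68 to 8.23 FPKM in WT, and 6 of 13 rose, but 5 of the 13 had at most 3 reads per library on one side and 0 passed when the 6 libraries were fitted alone. Lyz2, lysozyme, had 0.839, 2.27 and 1.601 FPKM in cKO and 0.842, 0.406 and 0.234 FPKM in WT (1.52 ± 0.38, adjusted p = 0.0147), with overlapping groups. Of 8 mast cell genes Hdc, which makes histamine, rose (1.46 ± 0.17, adjusted p = 0.00162) and Gata2, a transcription factor, fell (-1.03 ± 0.25, adjusted p = 0.0148). The other 6 did not pass. Mast cell genes summed to 6.68 to 9.89 FPKM in cKO and 4.48 to 4.76 FPKM in WT. In the 6 libraries with THY1+ markers the sum was 45.0 to 98.2 FPKM. Hdc did not follow that sum, with 6.09, 6.44 and 5.02 FPKM in cKO and 1.57 to 2.78 FPKM in those 6. No T cell gene of 8 passed in limma (0 at an unadjusted p under 0.05), and of 5 erythroid genes Alas2, of haem synthesis, rose (0.83 ± 0.23, adjusted p = 0.0237). Leaving out 1 library ended, among the named genes, the calls of Alas2 (without WT replicate 2), Gata2 and Alas2 (without WT replicate 3) and Alas2 (without cKO replicate 1).

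The calls were set beside the Leydig level of other mice. In the 6 libraries labelled KIT+ of the Zbtb16 table, which span 2 genotypes, each gene was correlated with the mean log2 level of the Leydig list, as a description. A correlation of at least 0.8 was found for 1936 of 2625 genes that rose (73.8%), for 4 of 969 that fell (0.413%) and for 19.1% of all 21032 genes. Median r was 0.90 among rises and -0.71 among falls. The part of Leydig RNA in these changes was not tested. Among germ cell genes, r was -0.18 for Lin28a, -0.7 for Neurog3 and -0.94 for Stra8. In the stem list it was 0.91 for Etv5, 0.89 for Spry4, 0.83 for Dusp6, 0.73 for Gfra1 and 0.54 for Shisa6. Between Zbtb16 null and WT libraries labelled KIT+, where 0.259% of genes passed, the Leydig list had a median change of 0.56. Genes that rose here had a median change of 0.49 there, genes that fell had -0.20, and Neurog3 changed by -1.19. In these r values, Leydig level and Zbtb16 genotype cannot be told apart.

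Retinoic acid genes moved both ways, with 4 of 19 rising, 2 falling and a median of 0.080. Cyp26b1, an enzyme that degrades retinoic acid, had 52.7, 69.5 and 71.9 FPKM in cKO and 26.5, 13.7 and 34.4 FPKM in WT (1.46 ± 0.39, adjusted p = 0.0206), with r = 0.93 to the Leydig list. Aldh1a1, which makes retinoic acid, had 1188, 958 and 750 FPKM in cKO and 495, 401 and 287 FPKM in WT (1.3 ± 0.29, adjusted p = 0.00948). Aldh1a1 stood at 30.7 to 58.4 FPKM in the 6 libraries with THY1+ markers. Which cells held the RNA of Cyp26b1 or Aldh1a1 was not tested. Each cKO library was above each WT library for both enzymes. Aldh1a3, of the same function, and Dhrs3, a retinal reductase, rose by 1.4 ± 0.27 and 1.09 ± 0.15. Rbp4, the retinol carrier, and Cyp26a1, a second degrading enzyme, fell by 0.99 ± 0.19 and 0.69 ± 0.19, both lost under germ cell scaling. With replicates 2 and 3 alone the list had 2 rises and 0 falls. Of the genes named above, Cyp26a1 lost its call without WT replicate 1, WT replicate 2, cKO replicate 1 or cKO replicate 2. Cyp26b1 lost its call without WT replicate 2, cKO replicate 2 or cKO replicate 3.

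Of 20 cell cycle genes 0 passed in limma (10 at an unadjusted p under 0.05), with a median of -0.31. Mcm6, of the replicative helicase, had 140 ± 8.56 FPKM in cKO and 171 ± 5.56 FPKM in WT (-0.29 ± 0.12, adjusted p = 0.111), and Top2a changed by -0.043 ± 0.11, both turning positive under germ cell scaling, where 3 genes of the list rose. Of 19 cholesterol synthesis genes 3 rose and 0 fell. Hmgcs1, an early enzyme of that pathway, had 250, 181 and 219 FPKM in cKO and 123, 113 and 117 FPKM in WT (0.87 ± 0.13, adjusted p = 0.00249). Idi1, an isomerase of the same pathway, rose by 0.68 ± 0.22 (adjusted p = 0.0434). Tet1 and Tet2, which oxidize 5-methylcytosine, rose among 7 DNA methylation genes (1.26 ± 0.26, adjusted p = 0.00745, and 1.33 ± 0.23, adjusted p = 0.0039). Of 8 SOX family genes Sox5 rose (1.3 ± 0.24, adjusted p = 0.00486, under 1 FPKM). With replicates 2 and 3 alone 1 cholesterol synthesis gene and 0 DNA methylation genes rose. With 1 library removed, of the named genes the test was no longer passed by Idi1 (without WT replicate 2), Idi1 (without WT replicate 3), Idi1 (without cKO replicate 1) and Idi1 (without cKO replicate 3).

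Outside the lists, Dppa3, known from primordial germ cells and oocytes, had 0 reads in the cKO libraries and 111 in WT (2.004, 2.22 and 2.24 FPKM). It was at least 9.41-fold lower, with 3 reads per library as the floor. Lmo1, a LIM-only cofactor, had 25.9, 28.3 and 26.8 FPKM in WT and 4.59, 6.16 and 6.39 FPKM in cKO (-2.23 ± 0.23, adjusted p = 0.00162). Gchfr, a regulator of GTP cyclohydrolase, had 3.35, 2.96 and 2.87 FPKM in WT and 0.494, 0.262 and 0.786 FPKM in cKO (-2.45 ± 0.29, adjusted p = 0.00162). Ly6k, a membrane-anchored germ cell protein, had 6.88, 18.6 and 8.299 FPKM in WT and 2.605, 5.098 and 3.87 FPKM in cKO (-1.43 ± 0.45, adjusted p = 0.0396). Prlr, the prolactin receptor, led the rises among genes above 10 FPKM that code for protein, with 17.5, 21.9 and 12.9 FPKM in cKO and 5.49, 4.01 and 3.73 FPKM in WT (1.94 ± 0.28, adjusted p = 0.00226, r = 0.99). Zim1, an imprinted gene, rose by 1.69 ± 0.27 (r = 0.99). Mir23a, a short entry, rested on 15 reads in cKO and 1 in WT libraries, a ratio of 17.05 with a counting interval of 2.62 to 718. The antisense entries A530020G20Rik and Gm20629 rose by 1.67 ± 0.23 and 1.65 ± 0.31, but counting by strand was not stated. Leaving out 1 library ended, among the named genes, the calls of Ly6k (without WT replicate 2), Ly6k (without WT replicate 3), Ly6k (without cKO replicate 1) and Ly6k (without cKO replicate 3).

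The other pair of like markers, cKO labelled THY1+ and WT labelled KIT+, shares no library with this one. The labels do not say whether it shares mice, so the pairs may not be independent. There 15 genes passed (0.0707%), and 13 of them passed here too, which is 86.7% of that list and 0.360% of the calls here. These 13, chosen after their values were seen, had the same direction in both pairs, 12 lower and 1 higher. Sox3 changed by -6.34 here and -6.47 there, Neurog3 by -3.9 and -3.82, and Lmo1 by -2.23 and -1.9. Hoxb13, a posterior homeobox gene, changed by -1.93 and -1.81, and Fbxo40 by -1.66 and -2.4. Cthrc1, H2-Q2, Mobp, Zcchc12, Gm9785, Gm2832 and Mageb8-ps also fell, and AU015336 rose. Lin28a changed by -1.03 there and did not pass (adjusted p = 0.0854). The Leydig median was 1.16 here and 0.23 there, the stem median 0.72 and 0.21, and the meiosis median -0.69 and -0.24.

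**Figure D5:**
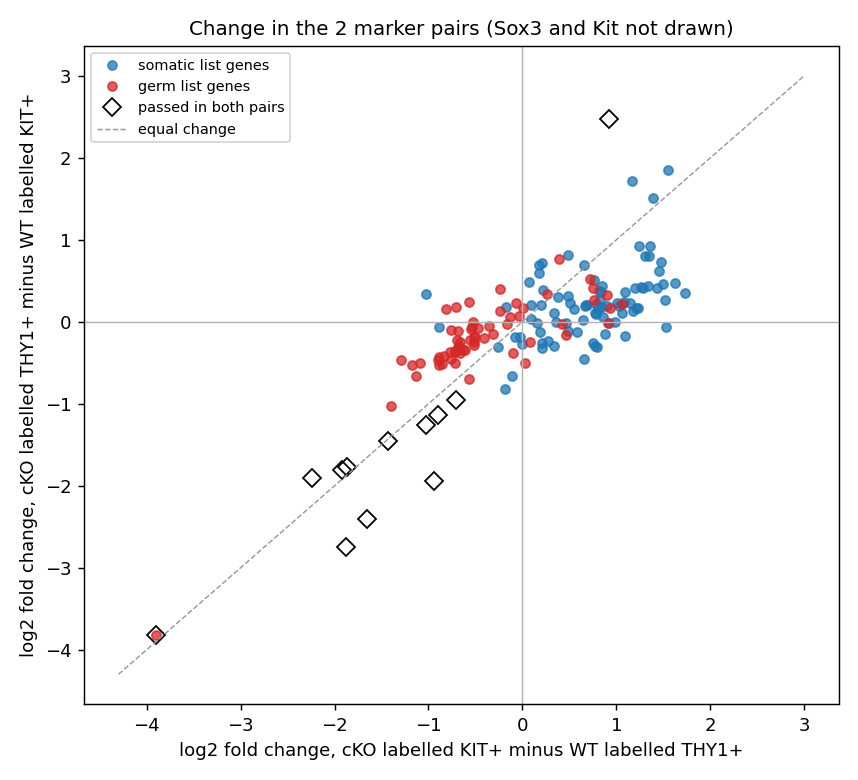
The x axis gives the log2 change between the libraries with KIT+ markers and the y axis that between the libraries with THY1+ markers, with somatic list genes in blue, germ list genes in red and diamonds for genes that passed in both. Sox3 and Kit are not drawn. Neurog3 and Lmo1 lie far below 0 on both axes.

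Whether a change differed between the pairs was tested for each gene, and 0 of 21212 passed in limma (0%), with 2709 at an unadjusted p under 0.05 and a smallest adjusted p of 0.159. For Neurog3 the difference was -0.078 ± 0.54 (adjusted p = 0.959) and for Lin28a -0.37 ± 0.25 (adjusted p = 0.563). Stra8 gave -0.82 ± 0.21 (adjusted p = 0.184), Dppa3 -3.19 ± 0.52 (adjusted p = 0.159) and Star 1.26 ± 0.58 (adjusted p = 0.394). No gene named here was shown to change differently in the libraries with KIT+ markers.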

How the data were processed

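The authors sorted spermatogonia with magnetic beads, made stranded libraries depleted of ribosomal RNA, aligned single-end reads to mm10 with Novoalign, placing multi-mapping reads at several positions, and deposited FPKM values made with USeq. Counting by strand is not given in the sources used here. The authors used DESeq2, which needs counts, so limma 3.58.1 in R 4.3.3 was applied to log2(FPKM + 0.1) instead.

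A single fit with a mean for each of 4 groups took the 12 Sox3 table libraries, for the 21212 genes whose mean reached 0.1 FPKM, using eBayes (trend, robust) and two-sided tests with Benjamini-Hochberg adjustment over all of them. Depth and read numbers were recovered from FPKM steps, which could be read for 10239 of 21688 genes, and their intervals cover counting error only. p-values measure the spread between these samples, which may be partly technical. The fit was tested on simulated data.

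The members, 19 lists (238 genes, of which 235 were tested and counted, Kit aside) and named genes were chosen with earlier results of these data known. Named were Sox3, the sorting markers, 4 genes the study names, up to 6 members per list (largest calls, otherwise highest FPKM) and examples from the 12 largest calls each way without overlap at 1 FPKM and at 10 FPKM. Promoters came from RefSeq and gene types from GENCODE. Alternatives covered pseudocount, filter, scaling, replicate block, the 6 libraries alone, replicates 2 and 3 alone, GC content and length, and leaving out each library.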

Additional observations from a re-analysis of the deposited data

How the results depend on the processing

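Between cKO labelled KIT+ and WT labelled THY1+, 3608 genes passed. Germ cell scaling gave 8052, replicates 2 and 3 alone 987, and leaving out 1 library 2334 to 3484, the lowest without WT labelled THY1+ replicate 2. The difference between marker pairs had 0 calls, but 3 with a pseudocount of 0.01, 1 with a pseudocount of 1, and 0 to 19 with 1 library left out (19 without WT labelled THY1+ replicate 1, 1 without cKO labelled THY1+ replicate 1). The cause was not tested. With the replicate block the counts were 4194 and 0. Same-numbered libraries of the 2 groups correlated at 0.348, 0.0222 and 0.164 in their deviations, and different-numbered ones at -0.339 to 0.184. Among cKO libraries labelled KIT+, WT labelled THY1+ replicate 3 correlated best with replicate 2 (0.184). The labels do not state pairs, and the main fit took none. Of 91 named calls, 29 passed under every alternative run. Signs turned for 8 genes that had not passed: under germ cell scaling Dazl (0.0086), Ddx4 (0.011), Mcm6 (0.23), Sall4 (0.28), Taf4b (0.16), Tex15 (0.36), Top2a (0.48) and Zbtb16 (0.039), and under quantile normalization Tex15 (0.010) and Top2a (0.11). Leaving out 1 library gave -0.52 to 0.23 for Sall4 and -0.073 to 0.012 for Top2a. Shallow depth limits entries such as Mir23a.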
